A study of Mus musculus with 7 samples.

Results

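The metzincin proteases and their inhibitors were described in the mammary gland, in wild-type and in PRA transgenic mice. The members were the probes that are no controls and whose gene name is that of a matrix metalloproteinase (Mmp and a number), an ADAM, an ADAMTS or one of Timp1 to Timp4. This gave 153 probes of 79 genes, out of 56605 probes and 37074 gene names on the array. They comprised 23 MMP genes, 33 ADAM genes, 19 ADAMTS genes and 4 TIMP genes. RNA came from single abdominal glands of nulliparous FVB females of 20 to 25 weeks, taken at diestrus with the lymph nodes cut away, 1 animal per array. The groups were 3 wild-type glands and 4 PRA transgenic glands, whose mice carry extra copies of the A form of the progesterone receptor. In these mice the CMV promoter drives the transactivator GAL-4, which in turn switches on the receptor gene through its binding sites, so that the transgene was not limited to the mammary epithelium by its promoter. Gland RNA carried Cy5, and Cy3 marked Universal Mouse Reference RNA, which is made from 11 mouse cell lines, was the same on all 7 arrays and was never given the other dye, so that levels against the reference are open to dye bias.

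Metzincins are zinc-dependent proteases that cut proteins outside the cell. MMPs are made as inactive precursors and, once activated, digest collagens, basement membrane and other matrix proteins. ADAMs sit in the cell membrane and release the outer part of growth factors and receptors, among them the epidermal growth factor receptor ligands of the mammary duct, while the secreted ADAMTS proteases cut proteoglycans, procollagens and clotting factors. TIMPs block the active site, and Timp3 is the one that is bound to the matrix and also inhibits ADAM17 and several ADAMTS enzymes. In the mammary gland these proteins take part in duct elongation and branching, in the remodeling of each estrous cycle and in involution after weaning.

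Upstream sequences are shown for Timp3 and Mmp12, the genes with all of their 3 probes lower in PRA transgenic glands below, and for Mmp3, a neighbor of Mmp12 on chromosome 9 with no such difference. Each is the 250 bases before a RefSeq transcript start (GRCm38.p6), read 5′ to 3′ on the strand of the gene. Capitals mark 4 motifs. These were the AP-1 motif TGANTCA, the PEA3 motif of Ets factors, which reads AGGAAG, and the GC box, which reads GGGCGG, each searched on both strands, and the TATA box, written as TATAAA and searched on the strand of the gene alone.
Timp3 (chr10:86300162-86300411, plus strand): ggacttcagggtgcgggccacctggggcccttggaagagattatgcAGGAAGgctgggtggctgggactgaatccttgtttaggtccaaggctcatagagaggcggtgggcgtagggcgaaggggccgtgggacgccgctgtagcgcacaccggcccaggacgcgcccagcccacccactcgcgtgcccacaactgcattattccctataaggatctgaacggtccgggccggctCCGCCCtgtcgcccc
Mmp12, upstream start (chr9:7344147-7344396, plus strand): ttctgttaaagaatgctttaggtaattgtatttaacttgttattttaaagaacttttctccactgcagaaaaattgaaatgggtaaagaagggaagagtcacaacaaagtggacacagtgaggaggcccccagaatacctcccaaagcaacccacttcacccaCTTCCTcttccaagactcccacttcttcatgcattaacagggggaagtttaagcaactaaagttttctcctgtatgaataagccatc
Mmp12, downstream start (chr9:7347124-7347373, plus strand): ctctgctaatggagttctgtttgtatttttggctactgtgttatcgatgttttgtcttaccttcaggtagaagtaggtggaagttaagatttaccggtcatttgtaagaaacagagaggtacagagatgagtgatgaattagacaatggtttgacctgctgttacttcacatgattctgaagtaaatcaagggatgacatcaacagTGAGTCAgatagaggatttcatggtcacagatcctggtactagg
Mmp3 (chr9:7445572-7445821, plus strand): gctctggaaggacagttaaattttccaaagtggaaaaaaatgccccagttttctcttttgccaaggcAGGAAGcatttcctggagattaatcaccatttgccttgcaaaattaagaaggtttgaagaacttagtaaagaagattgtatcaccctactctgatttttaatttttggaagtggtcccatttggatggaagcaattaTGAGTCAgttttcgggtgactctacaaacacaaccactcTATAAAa
The Timp3 window was GC-rich at 65.6% and held a GC box and a PEA3 motif, with no AP-1 motif and no TATA box. The upstream start of Mmp12 held PEA3 and the downstream start AP-1, and the Mmp3 window held AP-1, PEA3 and a TATA box. RefSeq windows were found for 49 of the 79 genes, 54 windows in all. An AP-1 motif was present in 8 of 21 MMP windows, 0 of 10 ADAMTS windows and 0 of 4 TIMP windows, against 6.75% of the 32851 windows of all genes. A TATA box was in 8 of 21 MMP windows against 7.59% of all windows, and a GC box in 7 of 10 ADAMTS and 3 of 4 TIMP windows against 32.7%. PEA3 was in 10 of 21 MMP windows and 3 of 4 TIMP windows (29.5% of all), and TGTTCT, a progesterone receptor motif, in 5 of 21 MMP windows and no TIMP window (16.1% of all). These are matches of letters, which say nothing of binding.

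The gland expressed 46 of the 79 genes strongly enough to be tested. A probe was kept when its Cy5 signal was well above background by the scanner software in all glands of 1 genotype or both, which held for 87 of the 153 probes. Of these, 76 passed in both genotypes, 11 through the wild-type arrays alone and 0 through the PRA transgenic arrays alone. Over the whole array 30210 of 34288 kept probes passed in both genotypes, a like share. All 4 TIMP genes and 15 of 19 ADAMTS genes were tested, against 13 of 23 MMP and 14 of 33 ADAM genes. Among the MMPs both gelatinases were tested, Mmp2 and Mmp9, which cut denatured collagen and basement membrane, and none of the 4 collagenases was. Of the 21 ADAMs best known from testis and epididymis, 3 were tested, Adam1a, Adam5 and Adam26b. For 21 of the 33 untested genes Cy5 was well above background on no array, among them Mmp1a, Mmp1b, Mmp10 and Mmp20. Mmp13, a collagenase, was well above background on 1 wild-type gland array but on all 7 arrays in the reference. Mmp7, the matrilysin made by epithelium, was well above background on 2 wild-type arrays and no PRA transgenic array. Of the 23 MMP genes 10 lie within 417 kb of chromosome 9 (mm9, probes from 7282762 to 7699535), and of these 10 only Mmp12, Mmp3 and Mmp27 were tested.

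**Figure D1:**
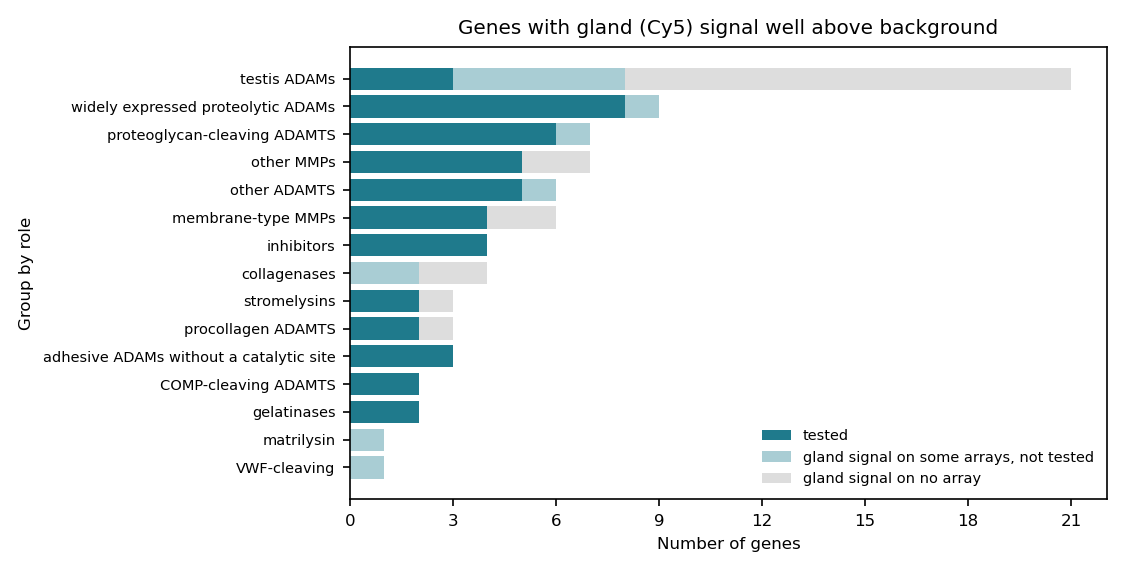
Number of member genes in each group by role (vertical axis) that were tested, that had gland (Cy5) signal well above background on some arrays without being tested, and that had it on no array (horizontal axis, genes). All 4 inhibitors were tested, and the ADAMs best known from testis form the largest untested group, with 3 of 21 tested.

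A probe is said to be called when the genotypes differed at an unadjusted P under 0.05 from limma and by 1.5-fold or more. Of the 87 member probes 13 were called (14.9%), against 4.53% of all 34288 kept probes. Of the called member probes 11 were lower in PRA transgenic glands and 2 higher, against 2.59% and 1.94% of all kept probes. The 13 probes belong to 9 genes, since Timp3 and Mmp12 have 3 called probes each, so they are not independent. Of the 13 probes 6 passed the filter through the wild-type arrays alone, which selects for lower values in PRA transgenic glands, and 7 were among the 76 that passed in both genotypes, where 3.37% of all probes were called and 1.57% were called lower. Taking the brightest kept probe for each gene, 7 of 46 genes were called, 1 higher and 6 lower, against 4.06% of 22503 gene names. Every PRA transgenic gland was below every wild-type gland at 8 of the 87 probes and above at 4, and 9.95% of all kept probes had groups that did not overlap. After Benjamini-Hochberg adjustment over all kept probes no member passed 0.05, the lowest adjusted p being 0.346, and 4 probes of the whole array passed (0.0117%). The median log2 fold change was -0.37 over the 4 TIMP genes, -0.14 over 13 MMP genes, 0.07 over 14 ADAM genes and -0.04 over 15 ADAMTS genes, against 0.01 over all gene names. The TIMP median lies midway between the values of Timp2 and Timp4, and the Timp4 probes disagreed in sign. With 1 array left out it ranged from -0.57 to -0.18. Of the 46 genes 22 had positive and 24 negative values. In these whole glands fewer cells of a type and less RNA per cell cannot be told apart.

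**Figure D2:**
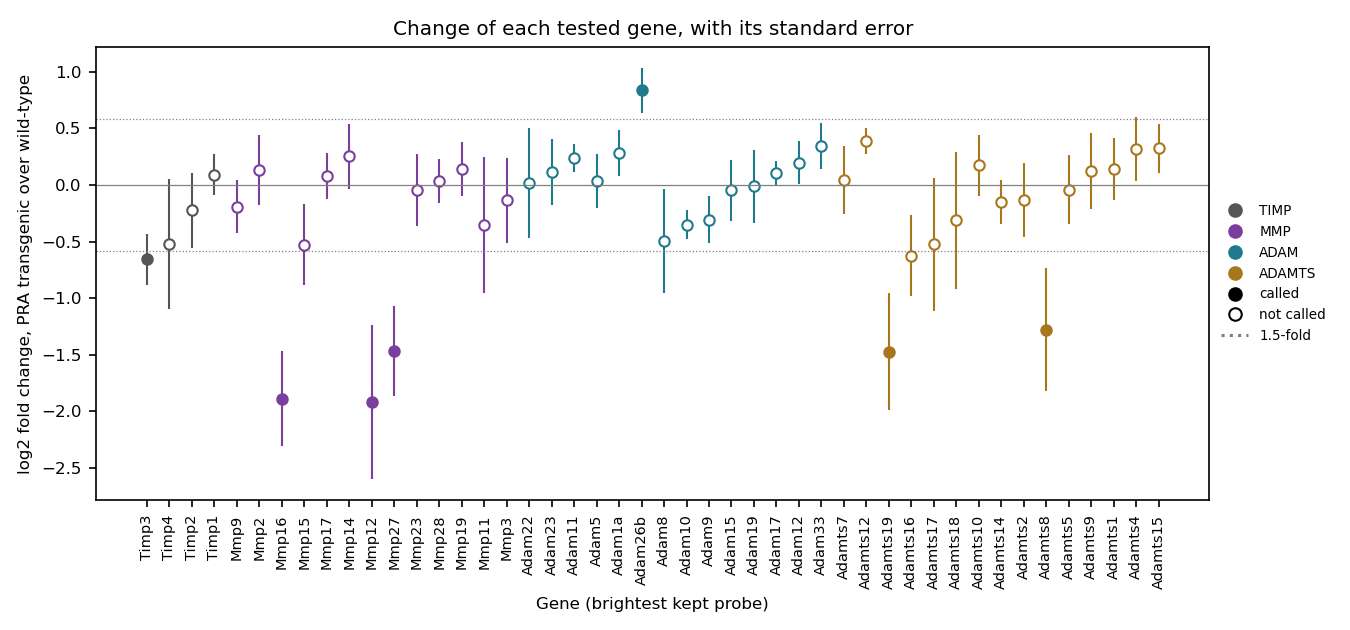
Log2 fold change of PRA transgenic over wild-type glands (vertical axis, points with standard error, SE, from limma) for the brightest kept probe of each of the 46 tested genes (horizontal axis, by family and role). Filled points are called, dotted lines mark 1.5-fold, and Mmp12, Mmp16, Mmp27, Adamts19 and Adamts8 lie lowest with Adam26b highest.

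The arrays shared 1 slide, with wild-type glands in its row 1 and PRA transgenic glands in its row 2, and row and genotype cannot be told apart. Cy5 was well above background for 62.7% to 66.2% of probes on wild-type and 56.6% to 60.2% on PRA transgenic arrays, and Cy3, the same RNA throughout, for 53.2% to 54.0% and 47.2% to 50.6%. No spot was saturated. Marker lists of 14 cell types or states held 89 tested genes, of which 2 were called. The 12 lists with no call included luminal and basal epithelium, white adipocytes, fibroblasts and neutrophils. Cd8a, a T cell marker, was lower without overlap at 5.06, 1.60 and 2.39 in wild-type and -0.54, 1.56, -0.38 and 0.58 in PRA transgenic glands (-2.71 ± 0.88 SE, adjusted p = 0.462), with Cy5 well above background on 1 PRA transgenic array, and all 7 T cell markers had negative values. Emcn, an endothelial marker, was higher without overlap (0.78 ± 0.16 SE, adjusted p = 0.330) and differed by 0.35 in Cy5 alone. The neutrophil list averaged 1.14 to 1.66 in wild-type and 0.44 to 1.12 in PRA transgenic glands in the ratio, with 2 of 5 tested genes positive, and -1.81 to -0.81 against -2.49 to -1.61 in Cy5 alone, where the groups overlapped. The skeletal muscle list averaged 1.86, 2.80 and 2.90 (log2 ratio) in wild-type replicates 1 and 3 and PRA transgenic replicate 4, and -1.11 to -0.65 in the other glands. T cell markers averaged 2.05 in wild-type replicate 1 and -0.25 to 0.41 elsewhere. The part of these lists in the values of the proteases was not tested. Pgr, the gene of the receptor, did not differ beyond its spread (log2 fold change -0.65 ± 0.80 SE, adjusted p = 0.859, where SE is the standard error from limma). At this probe Cy5 alone differed by 0.03, and Cy3, well above background on no array, by 0.69. Whether the probe reads the transgene was not tested.

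Timp3 was lower in PRA transgenic glands at each of its 3 probes, and at none of them did the genotypes overlap. At the brightest probe (A_55_P2865447, chromosome 10 of mm9, 85812041 to 85812100) the log2 ratios were 0.90, 1.54 and 0.99 in the wild-type glands and 0.44, 0.16, 0.46 and 0.90 in the PRA transgenic glands. PRA transgenic replicate 4 was the highest of its group and lay just below the lowest wild-type gland. The log2 fold change was -0.66 ± 0.23 SE (adjusted p = 0.466), or 1.58-fold lower. The second probe (A_51_P463765), 345 bases away and sharing no base with the first, read -0.07, 0.48 and 0.00 in wild-type and -0.84, -0.81, -0.79 and -0.26 in PRA transgenic glands. Here 3 PRA transgenic glands lay together and replicate 4 again lay nearest to the wild-type, with a log2 fold change of -0.81 ± 0.21 SE (adjusted p = 0.405), 1.76-fold lower. At both probes gland and reference were well above background on all 7 arrays, and the difference lay in the gland channel. Cy5 alone, set to each array's 75th percentile, fell by 0.59 and 0.73 (log2) while the Cy3 differences were 0.08 and 0.09. They were the only called member probes with the reference well above background on every array. The call of the brightest probe was lost without wild-type replicate 2 (-0.46) or without PRA transgenic replicate 2 (-0.55), and that of the second probe held whichever array was left out.

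The third Timp3 probe (A_55_P2715422) lies 42.6 kb from the brightest one and is annotated to a separate Timp3 transcript. It was well above background on all 3 wild-type arrays and 1 of 4 PRA transgenic arrays, and read 0.33, 0.82 and 0.80 against 0.21, -0.48, -0.93 and -0.49. The log2 fold change was -1.08 ± 0.28 SE (adjusted p = 0.405). This probe passed the filter through the wild-type arrays alone, so its direction adds nothing to that of the other Timp3 probes. The 7 fibroblast markers, a stromal list, averaged 3.00, 2.86 and 2.51 in wild-type glands and 2.49 to 2.51 in PRA transgenic replicates 1 to 3. PRA transgenic replicate 4, the gland nearest to the wild-type at the bright Timp3 probes, averaged 2.98. Wild-type replicate 3 was at the level of PRA transgenic replicates 1 to 3 in this list, but above them at the bright Timp3 probes. Of these markers 6 had negative values and 0 were called, and their part in the Timp3 difference was not tested. Timp3 lies within the span of Syn3, as Timp1 and Timp4 lie within Syn1 and Syn2.

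The other inhibitors were not called. Timp1, a soluble inhibitor induced by growth factors, stood below the reference in every gland, at -2.83, -3.31 and -3.19 in wild-type and -3.34, -2.98, -2.82 and -2.94 in PRA transgenic glands. The genotypes overlapped, with a log2 fold change of 0.09 ± 0.18 SE (adjusted p = 0.925). Timp2, which also takes part in the activation of Mmp2 by Mmp14, read 1.45, 1.51 and 0.76 against 1.09, 0.62, 0.58 and 1.76, with PRA transgenic replicate 4 the highest of all 7. Its 2 probes had log2 fold changes of -0.22 and -0.23. Timp4, known from adipose tissue and heart, stood above the reference throughout. Its brightest probe read 5.90, 6.58 and 5.78 in wild-type and 6.15, 6.27, 5.91 and 3.95 in PRA transgenic glands, so that the ratio of replicate 4 alone lay apart. The Cy5 level of that array, 4.27, lay within the 3.03 to 4.96 of the other PRA transgenic arrays, while its Cy3 level was 0.35 against -2.87 to -1.17. The log2 fold change of -0.52 ± 0.58 SE became 0.02 without that array, and was 0.59 in Cy5 alone. The other Timp4 probes gave 0.56 and 0.33, so the probes of this gene disagreed in sign.

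**Figure D3:**
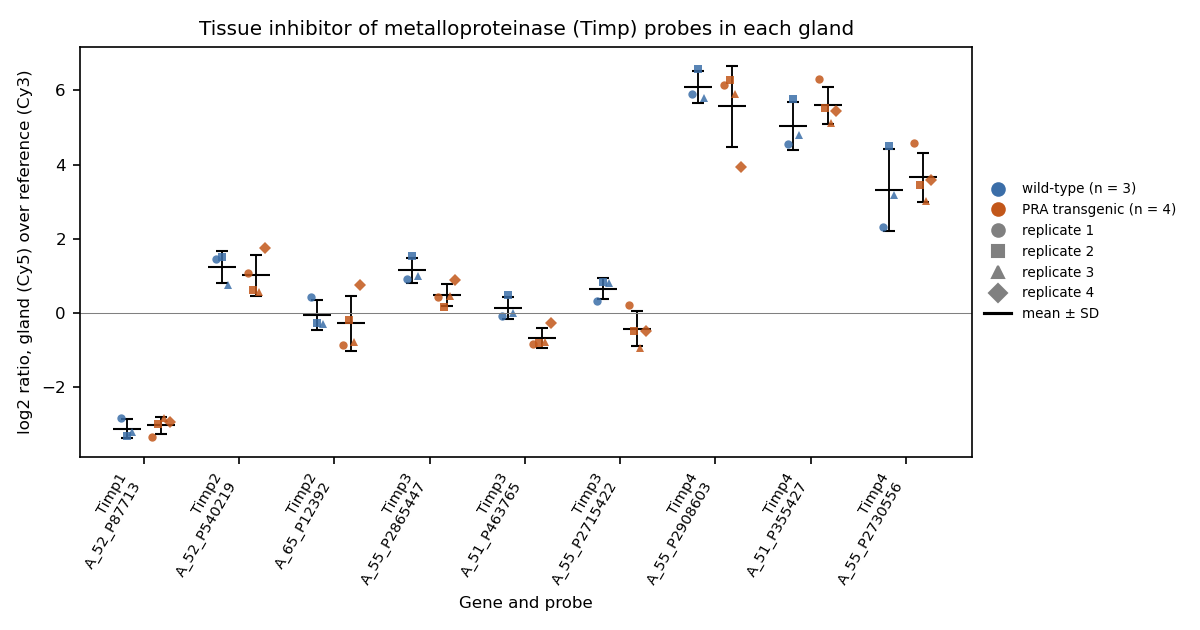
Log2 ratio of gland to reference (vertical axis) for the 9 kept Timp probes (horizontal axis), with 1 symbol per gland and bars for mean ± SD (wild-type n = 3, PRA transgenic n = 4). The groups are apart at the 3 Timp3 probes and overlap at all probes of Timp1, Timp2 and Timp4. Heights may be compared within a probe and not between probes.

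Mmp12, the macrophage elastase, had the most negative log2 fold change among the brightest probes, and its wild-type glands differed widely from each other. The brightest probe (A_55_P2788594, chromosome 9 of mm9, 7358559 to 7358618) read 0.67, 3.61 and 1.48 in wild-type and 0.09, -0.06, -0.71 and 0.69 in PRA transgenic glands. Wild-type replicate 2 was far above the rest, and wild-type replicate 1 was at the level of PRA transgenic replicate 4, so the groups touched. The log2 fold change was -1.92 ± 0.68 SE (adjusted p = 0.478), 3.79-fold lower, with a difference of -2.01 in Cy5 and -0.08 in Cy3. Without wild-type replicate 2 it was -1.07, and without PRA transgenic replicate 3 the call was lost (-1.69).

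The other Mmp12 probes passed the filter through the wild-type arrays alone, so their direction is no support for that of the brightest probe. The probe A_55_P2024803 read 0.70, 3.02 and 1.77 against -0.59, -0.03, -0.49 and -0.11, with no overlap (log2 fold change -2.14 ± 0.50 SE, adjusted p = 0.362). The probe A_51_P313674 covers 516 bases of mm9 and hence a splice junction, and read 0.58, 3.36 and 1.93 against -1.55, 1.08, 0.44 and 0.04 (-1.95 ± 0.79 SE, adjusted p = 0.535). Its call was lost without wild-type replicate 2 (-1.25), wild-type replicate 3 (-1.97), or PRA transgenic replicate 1 (-1.44), 3 (-2.10) or 4 (-1.97). Each had Cy5 well above background in 1 PRA transgenic gland. In all 3 probes wild-type replicate 2 was the highest and replicate 1 the lowest wild-type gland. The 7 macrophage markers were all tested and 0 were called, with a mean log2 ratio of 3.07 to 3.39 in wild-type and 3.14 to 3.72 in PRA transgenic glands. In Cy5 alone they averaged 2.97, 2.83 and 2.59 in wild-type and 2.31, 2.62, 2.41 and 3.58 in PRA transgenic glands. Their part in the Mmp12 difference was not tested.

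Mmp16, a membrane-type MMP that activates Mmp2, had the lowest adjusted p of the members. Of its 3 probes 1 was kept (A_55_P2803702, chromosome 4 of mm9, 18044545 to 18044604), which read -0.35, -0.34 and 0.98 in wild-type and -2.35, -1.46, -2.14 and -1.23 in PRA transgenic glands. The groups were well apart, with a log2 fold change of -1.89 ± 0.42 SE (adjusted p = 0.346) and a Cy5 change of -2.11. Cy5 was well above background in all 3 wild-type glands and in none of the 4 PRA transgenic glands, so the size of the difference is uncertain. Setting the PRA transgenic glands to the dimmest signals that still exceeded background gave a level 1.97-fold lower. This is no strict bound, since a signal that is not well above background can be brighter than the dimmest that is. The probe entered the test through the wild-type arrays alone. The reference too was well above background on the 3 wild-type arrays alone, though its level differed by only -0.21.

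At the remaining called MMP probes, of Mmp27 and Mmp28, the ratio was lower in PRA transgenic glands while the gland signal alone was not called. Mmp27, an MMP of little-known substrate, read 4.60, 4.50 and 3.82 in wild-type and 2.23, 3.69, 3.12 and 2.32 in PRA transgenic glands, without overlap (log2 fold change -1.47 ± 0.40 SE, adjusted p = 0.407). The difference in Cy5 alone was -0.07, and in Cy3, well above background on 1 of the 7 arrays, it was 1.41. Mmp28 (epilysin, found in epithelia) was called at the probe A_55_P2150612, at 2.05, 1.94 and 1.55 against 0.69, 0.32, 0.55 and 1.49. This probe too passed through the wild-type arrays alone. The ratio fell by 1.09 ± 0.29 SE (adjusted p = 0.405), the Cy5 difference was 0.14 and the Cy3 difference 1.24. Its brightest probe gave a log2 fold change of 0.03. The part of the reference channel in these differences was not tested.

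The better known MMPs of the mammary stroma were not called. Mmp14, the membrane-bound activator of Mmp2, had a log2 fold change of 0.25 ± 0.29 SE and Mmp2 itself one of 0.13 ± 0.31 SE. Mmp9 gave -0.19 and -0.35 at its 2 probes, Mmp3 (stromelysin-1) -0.14, and Mmp19 0.14 at both probes. Mmp15, another membrane-type MMP, read 4.02, 4.05 and 4.12 in wild-type and 3.17, 4.58, 3.20 and 3.18 in PRA transgenic glands, so that replicate 2 alone was above the wild-type (-0.53 ± 0.36 SE). Mmp11 (stromelysin-3), which stromal cells make, read -1.90, -0.02 and -2.04 against -1.97, -1.92, -2.26 and -0.55. A single gland of each genotype, wild-type replicate 2 and PRA transgenic replicate 4, stood above the others, and the log2 fold change of -0.36 became 0.29 without the first of them.

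**Figure D4:**
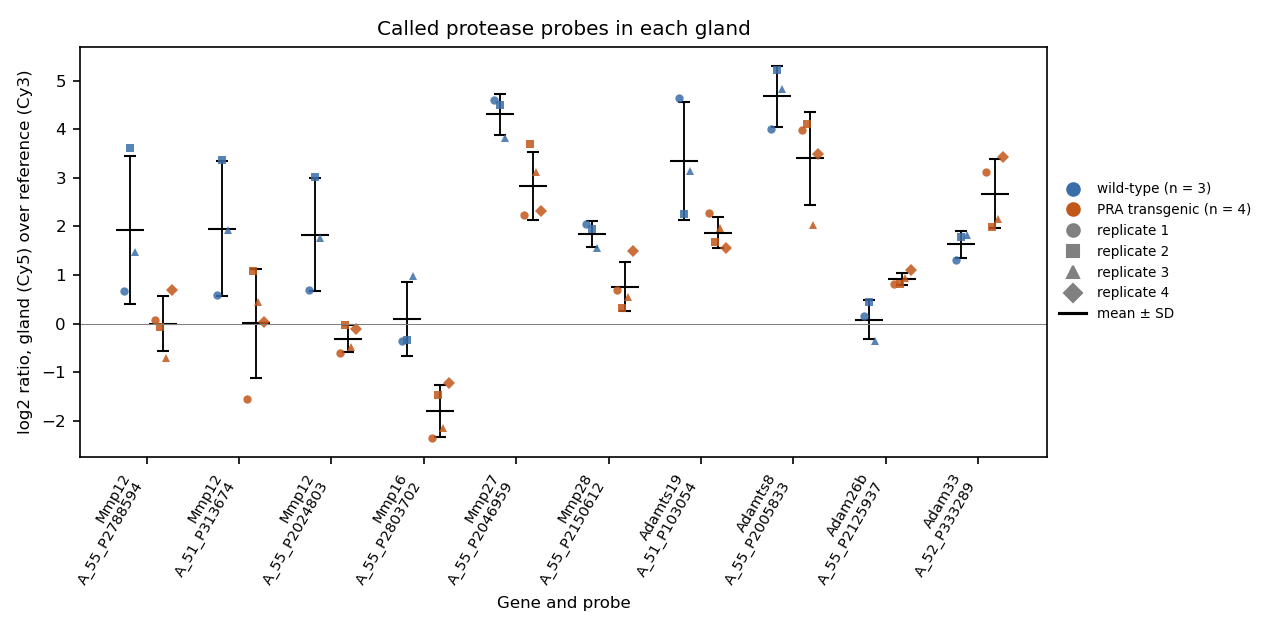
Log2 ratio of gland to reference (vertical axis) at the 10 called protease probes (horizontal axis), with 1 symbol per gland and bars for mean ± SD (wild-type n = 3, PRA transgenic n = 4). Wild-type replicate 2 is the highest gland at each Mmp12 probe, and the groups are apart at Mmp16, Mmp27, 1 Mmp12 probe, 1 Mmp28 probe, Adam26b and 1 Adam33 probe. Heights may be compared within a probe and not between probes.

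The 2 called ADAM probes had higher ratios in PRA transgenic glands, while the growth factor sheddases were not called. Adam26b, one of the testis group, read 0.15, 0.46 and -0.35 in wild-type and 0.82, 0.82, 0.94 and 1.10 in PRA transgenic glands, without overlap. The log2 fold change was 0.84 ± 0.20 SE (adjusted p = 0.382), of which Cy5 gave 0.40 and Cy3 -0.43. Adam33, expressed by mesenchymal cells, was called at the probe A_52_P333289, at 1.31, 1.78 and 1.82 against 3.12, 2.00, 2.15 and 3.44 (1.04 ± 0.38 SE, adjusted p = 0.494). Its brightest probe gave 0.35 ± 0.20 SE, the other kept probes -0.38 and 0.43, and Cy5 at the called probe 0.39. That call was lost without wild-type replicate 1 (0.88) or 2 (1.11), or PRA transgenic replicate 1 (0.89) or 4 (0.79).

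Adam17, which releases amphiregulin and tumor necrosis factor, read 0.50, 0.39 and 0.32 in wild-type and 0.46, 0.55, 0.51 and 0.52 in PRA transgenic glands at its brightest probe (0.10 ± 0.11 SE), and its other probes gave 0.25 ± 0.16 SE and 0.35 ± 0.25 SE. Adam10, the Notch sheddase, read 0.46, 0.14 and 0.21 against 0.04, -0.10, -0.21 and -0.06 at its brightest probe. The groups did not overlap and the unadjusted P was 0.029, but the change of -0.35 was below 1.5-fold (adjusted p = 0.495) and its other probe gave 0.14. Adam9, Adam12 and Adam15 gave -0.31, 0.20 and -0.05, with standard errors of 0.19 to 0.27. Adam8, an ADAM of leukocytes, gave -0.49 ± 0.46 SE, with wild-type replicate 2 and PRA transgenic replicate 4 again the highest of their groups at -1.38 and -1.63. Adam11, which has no catalytic site, gave 0.24 without overlap (unadjusted P 0.092), and Adam1a gave 0.28 ± 0.20 SE.

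Of the ADAMTS genes Adamts8 and Adamts19 were called, both lower. Adamts8, a proteoglycan-cleaving enzyme, read 4.00, 5.23 and 4.82 in wild-type and 3.98, 4.12, 2.03 and 3.48 in PRA transgenic glands, with overlap (log2 fold change -1.28 ± 0.54 SE, adjusted p = 0.553). The Cy3 signal exceeded background on no array and differed by 0.97, while Cy5 differed by -0.32. The call was lost without wild-type replicate 2 (-1.01) or 3 (-1.21), or PRA transgenic replicate 3 (-0.82) or 4 (-1.31). Adamts19, whose substrate is not well known, read 4.64, 2.26 and 3.14 against 2.27, 1.69, 1.97 and 1.56 (-1.47 ± 0.52 SE, adjusted p = 0.476), and its probe passed the filter through the wild-type arrays alone. Wild-type replicate 1 was the highest, and without it the value was -0.83. The call was lost without PRA transgenic replicate 2 (-1.41) or 4 (-1.37). In Cy5 alone Adamts19 differed by -0.93 and was not called. Its Cy3 levels were -6.27 to -6.13 on wild-type and -5.82 to -5.35 on PRA transgenic arrays.

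The remaining ADAMTS genes overlapped between genotypes, apart from Adamts12. That gene, whose product cuts cartilage oligomeric matrix protein, read 3.45, 3.31 and 3.26 in wild-type and 3.60, 3.84, 3.73 and 3.75 in PRA transgenic glands at its brightest probe, without overlap (0.39 ± 0.12 SE, unadjusted P 0.011, adjusted p = 0.421). The change was below 1.5-fold, and its other 2 probes gave -0.75 and -0.24. The aggrecanases and versicanases Adamts1, Adamts4, Adamts5, Adamts9 and Adamts15 gave 0.14, 0.32, -0.04, 0.12 and 0.32, with standard errors of 0.22 to 0.33. Adamts2, which trims procollagen, gave -0.13 ± 0.33 SE. Adamts18 ranged from 3.76 to 5.34 in wild-type and from 3.01 to 5.34 in PRA transgenic glands (-0.31 ± 0.61 SE). Adamts16 and Adamts17 gave -0.62 and -0.53, both within their spread.

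Split by channel, the 13 called probes differed in where the change lay. In Cy5 alone 5 of them were also called, namely all 3 Timp3 probes, Mmp16 and the brightest Mmp12 probe. The 13 were chosen by a ratio that holds the same Cy5 values, so this is no independent test. Of the 87 kept member probes 5 were called in Cy5 alone, against 3.41% of all kept probes. Mmp16 and the third Timp3 probe passed the filter through the wild-type arrays alone. At 5 of the 13 called probes the Cy3 difference was larger than the Cy5 difference, namely those of Mmp27, Mmp28, Adamts8, Adam33 and Adam26b. The reference was well above background on all arrays at 2 called probes, on 1 to 6 arrays at 7 and on no array at 4. Among the 24664 probes at which gland and reference both exceeded background throughout 1.9% were called, and of the 48 members among them the 2 bright Timp3 probes.

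**Figure D5:**
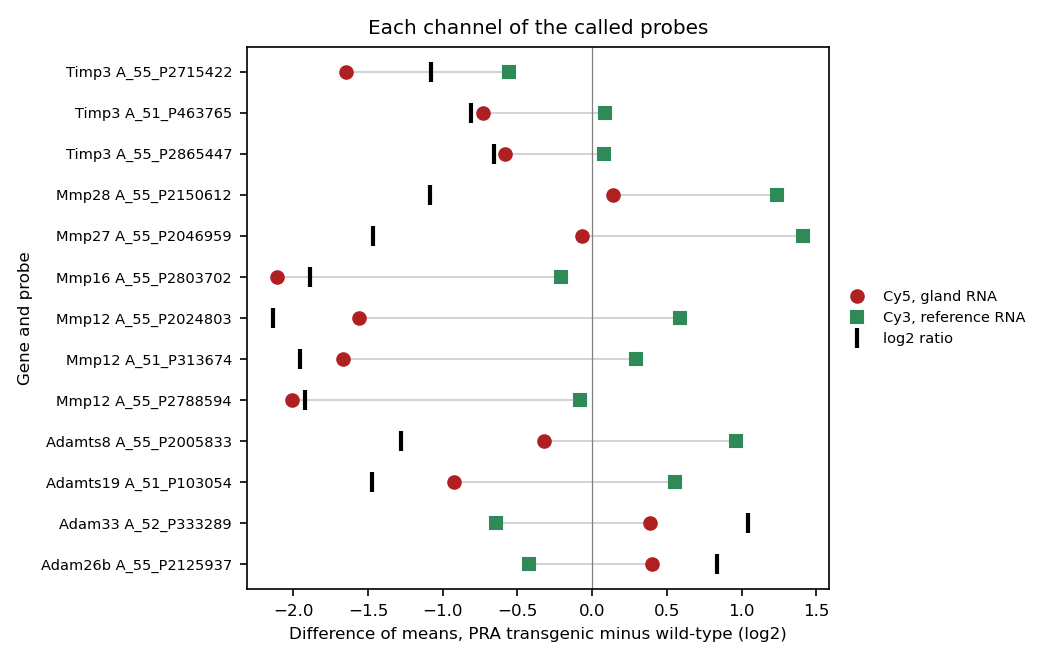
Difference between genotype means (horizontal axis, log2, PRA transgenic minus wild-type) in Cy5 (gland), in Cy3 (reference) and in their ratio for each of the 13 called probes (vertical axis). Each channel is relative to its array's 75th percentile. The Cy5 difference is the larger at Timp3, Mmp12, Mmp16 and Adamts19, and the Cy3 difference at Mmp27, Mmp28, Adamts8, Adam33 and Adam26b.

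Of 24 member genes with several kept probes, 13 had probes of the same sign and 11 did not. At Timp3 and Mmp12 all 3 probes were called, of which 1 Timp3 probe and 2 Mmp12 probes passed the filter through the wild-type arrays alone and are no independent evidence of direction.

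Genes that activate, regulate or are cut by these proteases were called in 4 of 70 cases, all lower, where 4.06% of gene names were called and 2.55% were called lower. In the plasminogen system, whose plasmin activates several MMPs, 1 of 8 tested genes was called, S100a10, a plasminogen receptor subunit. It read 0.40, 0.65 and 0.14 in wild-type and -0.05, -0.64, -0.38 and -0.11 in PRA transgenic glands, without overlap (log2 fold change -0.69 ± 0.19 SE, adjusted p = 0.412). Without wild-type replicate 2 (-0.56) or PRA transgenic replicate 2 (-0.57) it was below 1.5-fold. Negative values were found for 7 of the 8 genes, with a list median of -0.27. Of 11 activating proteases, such as furin and the mast cell chymases, 0 were called, nor were any of 12 other matrix proteases, 6 ADAMTS-like genes or 8 ADAM partners. Of 9 other inhibitors and regulators 2 were called lower, Thbs1 and Spock2. Thbs1, the matrix protein thrombospondin-1, read -1.63, 0.58 and -0.19 against -2.44, -1.08, -2.64 and -1.29, with wild-type replicate 2 again the highest (-1.45 ± 0.60 SE, adjusted p = 0.542). Its call was lost without wild-type replicate 2 (-0.95) or 3 (-1.34), or PRA transgenic replicate 1 (-1.26) or 3 (-1.19). Spock2, a matrix proteoglycan, fell by 0.72 in the ratio but differed by 0.26 in Cy5 alone, and the call was lost without wild-type replicate 1 (-0.64) or 2 (-0.64).

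Of 9 tested ADAM-shed ligands and receptors 1 was called, Egf, the epidermal growth factor precursor. It read 0.19, 0.70 and 1.27 in wild-type and -0.07, -0.42, -0.09 and -0.23 in PRA transgenic glands, without overlap (-0.92 ± 0.25 SE, adjusted p = 0.409), and Cy5 fell by 0.85. Of 7 ADAMTS substrates 0 were called and 6 had negative values. Col3a1, a fibrillar collagen, was lower without overlap at 2.79, 2.84 and 2.72 against 2.00, 2.38, 2.06 and 2.58, but by less than 1.5-fold (-0.53 ± 0.17 SE, adjusted p = 0.453).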

How the data were processed

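RNA of 7 glands was measured on 7 two-color arrays. The authors deposited scanner output of Agilent Feature Extraction (version 12.0 per the submitters' processing notes, 11.5.1.1 per the file headers), whose processed Cy5 and Cy3 intensity values were background-subtracted, dye-normalized and set to surrogates where dim. A series table of log2 values that the authors deposited was found to be the log2 ratio of these intensities centered on each probe's median over the arrays. From the processed signals log2(Cy5/Cy3) was taken without control and outlier spots, spots of a probe were averaged, and genotypes were compared with limma 3.58.1 (lmFit, eBayes) under R 4.3.3, two-sided, with Benjamini-Hochberg adjustment over 34288 kept probes. The steps were checked on simulated data. No counts exist, so the number of arrays limits the precision, and each array holds 1 animal. Cy5 or Cy3 alone is the log2 intensity less its array's 75th percentile, and log2 fold changes are PRA transgenic minus wild-type. The brightest kept probe in Cy5 stands for a gene. Of the member probes 119 were named through their accession and 34 by symbol in the RefSeq table of GRCm38.p6, probe positions are those of the files (mm9), and upstream sequences are RefSeq's.

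The members, the lists of related genes and the thresholds, which are the study's, were chosen with earlier results of these data known. The genes named are the 4 TIMPs, every member gene with a called probe, members with a known part in the mammary gland or its stroma, the 3 largest rises and 3 largest falls among the rest, called genes of the lists, and Pgr. Others are named where a count of 5 or fewer, or a description of the untested genes, called for it. Marker lists were those of macrophages, neutrophils, mast cells, T cells, B cells, fibroblasts, endothelium, epithelium (luminal, basal), adipocytes (white, brown), skeletal muscle, Schwann cells and proliferation. All but those of T cells and endothelium gave 0 calls. Columns of control spots and the sign and significance columns of the scanner were not used. Alternatives were normexp background correction with offset 50 and loess, the series table, no filter, Cy5 and Cy3 both above background throughout, Cy5 alone, quantile normalization between arrays, the methods' t-test, a block for the replicate number, weights for arrays, leaving out 1 array at a time, and the median over all kept probes of a gene. The study's stricter threshold, P under 0.01 and 2-fold, was passed by 5 member probes, against 0.796% of all kept probes. These were the probes of Mmp16 and Mmp27, A_55_P2024803 of Mmp12, A_55_P2150612 of Mmp28 and A_55_P2715422 of Timp3. All but that of Mmp27 passed the filter through the wild-type arrays alone, which selects for lower values in PRA transgenic glands. At Mmp27 the difference in Cy5 alone was -0.07. This count is therefore no support for a lower level of the members.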

Additional observations from a re-analysis of the deposited data

Results flagged for a closer look

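Among the 4 PRA transgenic glands 1 gland lay far from the other 3, judged by its gap to the nearest of them over the range of all 4, in 7 of the 61 results examined, where chance flags about 1 in 20. The 61 results come from the same 4 arrays and overlap in their genes. They are not independent, so the 7 cannot show an excess over that rate. PRA transgenic replicate 4 was the gland that lay apart in 5 of the 7. Its log2 ratio was 3.95 against 5.91 to 6.27 for Timp4 (gap over range 0.846), 0.71 against 0.12 to 0.16 for Mmp14 (0.930) and -0.26 against -0.84 to -0.79 for the second Timp3 probe (0.913). At Timp4 its Cy5 level of 4.27 lay within the 3.03 to 4.96 of the other 3 glands. The Cy3 level on its array, from the reference RNA, was 0.35 against -2.87 to -1.17, so the gap at Timp4 lay in the reference channel. The skeletal muscle markers averaged 2.90 there against -1.11 to -0.65 (0.887), and the fibroblast markers 2.98 against 2.49 to 2.51 (0.959), where wild-type glands had 2.51 to 3.00. Their part in the values of that gland was not tested. Replicate 3 stood apart for Adam1a, at 1.01 against 0.46 to 0.48 (0.969), and replicate 2 for Mmp15, at 4.58 against 3.17 to 3.20 (0.976).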

How the results depend on the processing

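The 2 bright Timp3 probes and the brightest Mmp12 probe kept their direction under every alternative run, and the second Timp3 probe (A_51_P463765) was called under all 16. The brightest Mmp12 probe was not called with the methods' t-test or without PRA transgenic replicate 3. With normexp and loess 4 member probes were called, 2 of Mmp12 and 2 of Timp3 (326 of all probes), with both channels well above background 2 of 48 (468 of all), in Cy5 alone 5, and with the methods' t-test 8 (996 of all). Without a filter 19 of 153 member probes and 3367 of all probes were called. The series table gave 13 members, quantile normalization 12 and array weights 12. Leaving out 1 array gave 10 to 12 member probes and 1382 to 2334 of all, the highest without PRA transgenic replicate 4 (2334). No member passed the adjusted p under any alternative. The replicate numbers do not pair the samples (same-number correlations of 0.0997, -0.297 and 0.0362), and with the replicate block 14 members and 2444 of all probes were called, Timp4 gave 0.022 and Mmp2 -0.089. The slide as a block was not run, since there was 1 slide. Family medians moved by less than the SD between arrays pooled over both genotypes (0.103 for ADAM, 0.170 for ADAMTS, 0.194 for MMP and 0.382 for TIMP). Each SD exceeded the size of its family's median, so this limit says little about how stable the medians are. The ADAMTS median turned positive with both channels above background (0.12), in Cy5 alone (0.030), with quantile normalization (0.048) and without wild-type replicate 2 (0.025), and the MMP median without a filter (0.035). In Cy5 alone the sign turned for Adamts17 (0.12), Adamts18 (0.0086), Mmp15 (0.13), Mmp2 (-0.032), Timp4 (0.59), Spock2 (0.26) and the called Mmp28 probe (0.14). With a gene taken as its median probe it turned for Adamts12 (-0.44), Adamts2 (0.23), Adamts4 (-0.073), Mmp28 (-0.53) and Timp4 (0.15). With quantile normalization it turned for Adamts5 (0.064) and Mmp28 (-0.0050), and with array weights for Adamts18 (0.024). Leaving out 1 array turned uncalled genes, whose ranges were -0.22 to 0.19 for Adam15, -0.071 to 0.30 for Adamts1, -0.71 to 0.10 for Adamts18, -0.45 to 0.025 for Adamts2, -0.28 to 0.24 for Adamts5, -0.061 to 0.38 for Adamts9, -0.73 to 0.29 for Mmp11, -0.061 to 0.49 for Mmp14, -0.10 to 0.36 for Mmp19, -0.10 to 0.31 for Mmp2, -0.11 to 0.21 for Mmp28, -0.40 to 0.15 for Mmp3, -0.34 to 0.057 for Mmp9, -0.0088 to 0.23 for Timp1 and -0.75 to 0.022 for Timp4. The causes were not tested. Genes whose reference is near background have ratios limited by the Cy3 signal.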
